A study of Mus musculus with 2 samples.

Results

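The cytosolic ribosomal protein genes encode the proteins of the small (Rps) and large (Rpl) ribosomal subunits. They were taken by symbol: Rpl or Rps followed by a number with the usual suffixes, plus Rplp0, Rplp1, Rplp2 and Rpsa, without the Rps6k kinases. Of 83 matching symbols among the 32285 genes in the files, 82 had 20 or more unique molecular identifiers (UMIs, each standing for 1 captured RNA molecule) over both matrices and are the members, 32 of the small and 50 of the large subunit. The testis-type copy Rpl10l had 4 UMIs and fell outside, and the nearest genes inside were Rpl39l with 93 and Rpl3l with 329 UMIs. Cytosolic ribosomal proteins with other symbols, such as Fau, Rpl36al and Rack1, are not members and are given separately.

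Colon tumours induced in mice with azoxymethane (AOM, a carcinogen) and dextran sulfate sodium (DSS, which inflames the colon) were digested to single cells and read with 10x Genomics 3′ chemistry, version 3. The KO library is labelled Gsk3b (IEC-/-), loss of Gsk3b in the intestinal epithelium, and the WT library Gsk3b (IEC+/+); there was 1 library per genotype. The labels do not state how many animals went into a library, their age or the Cre line. With 1 library per genotype, a difference between genotypes has no replicate check and cannot be told apart from a difference between these libraries. The comparisons are therefore given without tests or p-values, and all intervals are 95% intervals that cover counting error only.

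Each ribosome carries a single copy of most of these proteins, so cells make their mRNAs in near-fixed proportion and in very large amounts. The mRNAs begin with a run of C and T letters, the 5′ terminal oligopyrimidine (TOP) tract, through which the kinase mTOR and the RNA-binding protein Larp1 adjust their translation and stability. Dividing and protein-secreting cells are known for high ribosome production, and mature neutrophils for very little. GSK3B, the kinase lost in the KO epithelium by its label, marks beta-catenin for destruction in the Wnt pathway, and the Wnt target Myc drives transcription of ribosome genes.

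The KO library gave 10567 cells with a median of 3365 UMIs and the WT library 9922 cells with a median of 5120.5 UMIs, from 156641780 and 164574326 UMIs in all barcodes. A total of 34 cell barcodes occurred in both libraries. Cells fell into 28 clusters, named as 10 classes from fixed markers, and epithelial cells into 15 subclusters. The member genes were kept out of the genes used for clustering, so no class was defined by them. Members made up 14.3% of the UMIs of KO cells and 13.6% of those of WT cells. In empty droplets, which hold free RNA, they made up 14.7% and 14.4%. Gsk3b itself had 241 CPM (counts scaled to the same total in each class and library) in KO and 263 CPM in WT epithelial cells, a log2 ratio of −0.12 (−0.15 to −0.098). The labels do not say which part of the gene was deleted, and a 3′ tag outside it checks nothing.

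Promoter windows show the sequence that most members share at the start of transcription. RefSeq windows (GRCm38.p6, 250 bases before to 50 after each start) were found for 62 of the 82 members, 74 windows in all. A C/T run of 8 or more letters touching the stretch from 20 bases before to 30 bases after the start stood in 60.8% of the members' windows, against 23.5% of 32851 windows of all genes. The ETS-type motif CCGGAAG, on either strand, stood in 36.5% of the members' windows and 8.86% of all windows. The YY1-type motif AAGATGG, on either strand, stood in 16.2% and 6.34%, and TATAAA on the same strand within 50 bases before the start in 1.35% and 2.63%. A match of letters is a description and shows no binding. The 80-base windows printed here, 60 bases before the start and 20 from it, belong to members that the results turn on. Capitals mark the longest C/T run that touches the stretch described above. Rps6 and Rpl12 were high within the ribosomal pool of the KO library in every compared class, and Rpl35, Rplp2, Rps15a and Rpl10 were low.
Rps6, chr4:86857348-86857427, minus strand: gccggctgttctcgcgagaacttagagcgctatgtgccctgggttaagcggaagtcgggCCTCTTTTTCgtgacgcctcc
Rpl12, chr2:32961652-32961731, plus strand: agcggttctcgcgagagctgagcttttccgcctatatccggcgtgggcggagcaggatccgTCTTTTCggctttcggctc
Rpl35, chr2:39005112-39005191, minus strand: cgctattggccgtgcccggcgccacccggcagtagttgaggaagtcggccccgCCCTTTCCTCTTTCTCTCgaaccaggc
Rplp2, chr7:141447591-141447670, plus strand: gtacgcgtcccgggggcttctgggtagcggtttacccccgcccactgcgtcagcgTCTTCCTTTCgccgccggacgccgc
Rps15a, chr7:118116128-118116207, minus strand: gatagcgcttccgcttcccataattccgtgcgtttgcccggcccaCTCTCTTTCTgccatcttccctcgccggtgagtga
Rpl10, chrX:74270756-74270835, plus strand: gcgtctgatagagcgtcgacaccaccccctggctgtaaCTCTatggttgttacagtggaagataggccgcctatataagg
The run of Rpl35 was 18 letters long, those of Rps6, Rplp2 and Rps15a 10 letters each, that of Rpl12 7 letters and that of Rpl10 4 letters. Long and short runs thus occurred on the low side, and the high side held a run of 10 and a run of 7 letters. The runs of Rpl10 and Rps15a, beginning at −22 and −15 from the listed start, ended before it, so they need not be TOP tracts. The next windows belong to members whose share of the ribosomal pool differed most between cell classes and to the rare copy Rpl3l.
Rps27, chr3:90213629-90213708, minus strand: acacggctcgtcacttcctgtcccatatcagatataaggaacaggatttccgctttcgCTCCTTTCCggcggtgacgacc
Rps27l, chr9:66946026-66946105, plus strand: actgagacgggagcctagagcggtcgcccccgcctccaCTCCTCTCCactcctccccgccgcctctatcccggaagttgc
Rpl22l1, chr3:28805448-28805527, plus strand: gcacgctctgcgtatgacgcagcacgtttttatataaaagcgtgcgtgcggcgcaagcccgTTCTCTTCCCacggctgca
Rps9, chr7:3703981-3704060, plus strand: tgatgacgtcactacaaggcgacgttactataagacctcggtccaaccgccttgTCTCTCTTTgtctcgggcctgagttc
Rpl3l, chr17:24727766-24727845, plus strand: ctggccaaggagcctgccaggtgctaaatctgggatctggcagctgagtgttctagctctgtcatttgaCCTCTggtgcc
Rps27, Rps27l and Rps9 had runs of 9 letters and Rpl22l1 a run of 10 letters. The marked run of Rps27l, beginning at −22 from the listed start, also ended before it. The first window of Rpl3l, the copy known from skeletal and heart muscle, had a longest run of 5 letters.

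B cells devoted the largest share of their UMIs to ribosomal protein RNA, and neutrophils the smallest, in both libraries. In B cells the share was 19.8% in KO and 19.6% in WT (502 and 113 cells). T or NK cells stood at 16.7% in KO and 14.6% in WT (756 and 806 cells). Mast cells had 16.6% in KO and 17.5% in WT (61 and 149 cells), and dendritic cells 16.1% and 15.1% (87 and 210 cells). These lymphoid, mast and dendritic cells all stood above the empty droplets of their own library. Epithelial cells, which hold the tumour cells, had 15.2% in KO and 14.5% in WT (4293 and 4482 cells). Monocytes or macrophages had 11.7% in KO and 11.4% in WT (772 and 1306 cells). Neutrophils had 4.02% in KO and 3.64% in WT (3737 and 2744 cells), below every other class in both libraries. The 5th to 95th percentile of single neutrophils lay between 2.55% and 6.55% in KO and between 2.35% and 6.38% in WT. The same range of B cells ran from 13.3% to 26.1% in KO and from 9.75% to 26.1% in WT, so the ranges of both classes did not overlap.

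Smaller classes were read with fewer cells. Endothelial cells had 12.9% in KO and 11.2% in WT (82 and 45 cells), and fibroblasts 10.8% and 9.29% (205 and 19 cells). Plasma cells, which secrete antibodies, had 10.1% in KO and 7.26% in WT (72 and 48 cells). Immunoglobulin genes took 45.5% of their UMIs in KO and 56.7% in WT. Without immunoglobulin UMIs in the denominator the plasma cell share was 18.5% in KO and 16.8% in WT, and the log2 ratio was 0.14 in place of 0.48.

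**Figure D1:**
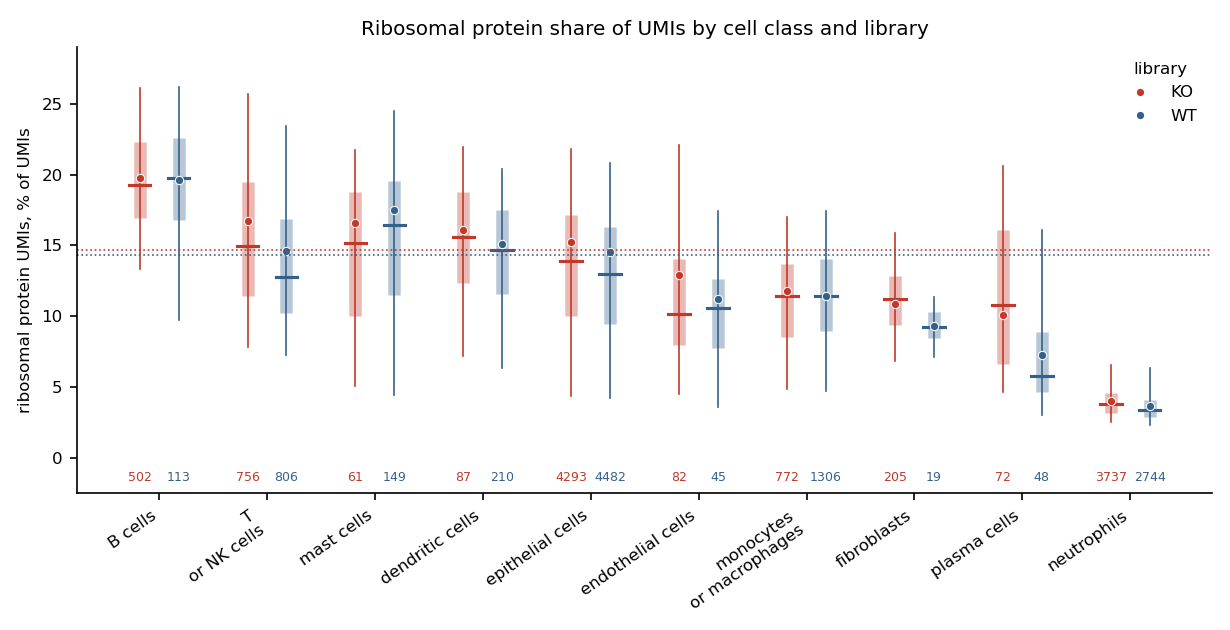
Share of UMIs from the 82 ribosomal protein genes (y axis, percent of UMIs) in 10 cell classes, KO left of WT; dots are pooled shares, horizontal lines the median cell, boxes the quartiles, whiskers the 5th to 95th percentile of cells, dotted lines the empty droplets, and numbers below count cells. B cells stand highest at 19.8% and 19.6% and neutrophils lowest at 4.02% and 3.64%.

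Both subunits contributed in near-constant proportion. In epithelial cells the small subunit members took 6.70% of UMIs in KO and 6.34% in WT, and the large subunit members 8.54% and 8.19%. The large subunit total was 1.27 times the small subunit total in KO and 1.29 times in WT epithelial cells. This ratio was lower in B cells, at 1.13 in KO and 1.14 in WT, and stood at 1.21 and 1.26 in T or NK cells. The median epithelial cell held 2687 member UMIs in KO and 2531.5 in WT, and the median neutrophil 70 in KO and 82 in WT.

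Between genotypes, the share was higher in KO than in WT in 5 of the 7 classes that had at least 50 cells from each library, lower in mast cells and within counting error in B cells. In T or NK cells the log2 ratio of KO over WT was 0.20 (0.19 to 0.20), in neutrophils 0.15 (0.14 to 0.15), in dendritic cells 0.093 (0.084 to 0.10), in epithelial cells 0.070 (0.068 to 0.071) and in monocytes or macrophages 0.041 (0.037 to 0.045). It was 0.012 (−0.000076 to 0.024) in B cells, but 0.071 with every barcode of 1000 UMIs, 0.088 with a 10% mitochondrial limit and 0.16 without doublet removal, each with its interval above 0. It was −0.077 (−0.092 to −0.061) in mast cells. The epithelial ratio stayed above 0 in all 18 alternatives run, between 0.025 and 0.16. The direction in monocytes or macrophages turned with the weighting. In monocytes or macrophages the mean over cells gave −0.033, cells thinned to 1000 UMIs gave −0.049, and clusters weighted equally gave −0.0042.

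The neutrophil share was far below that of empty droplets, so free RNA bore on it. Free RNA, estimated from the immunoglobulin UMIs found in cells of other lineages, was 17.9% of neutrophil UMIs in KO and 15.1% in WT. Subtracting it left a member share of 1.70% in KO and 1.73% in WT neutrophils, a log2 ratio of −0.027. The median log2 ratio of all genes in neutrophils was 0.17, about the same as that of the members, and with median-of-ratios scaling the neutrophil value was −0.021. In epithelial cells all genes had a median of −0.057, and the same scaling gave 0.13 for the members. Free RNA was estimated at 14.7% of epithelial UMIs in KO and 9.59% in WT, and its subtraction gave an epithelial ratio of 0.077.

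T or NK cells differed in make-up between the libraries. The cluster led by Ccl5 (a chemokine of cytotoxic cells) and Trbc2 had 19.3% member UMIs in KO and 17.0% in WT. It held 57.9% of KO and 38.2% of WT cells of the class. The cluster led by Rora and Ctla4 (a checkpoint receptor of regulatory cells) had 13.6% in KO and 13.2% in WT. The cluster led by Il17a and Trdc, the interleukin and the gamma-delta receptor chain, had 10.9% in KO and 12.6% in WT. The log2 ratios of these 3 clusters were 0.18, 0.037 and −0.22, and with equal weight for each, the small Il17a cluster (92 KO and 143 WT cells) included, the class had −0.00093. Neutrophils also differed in make-up: the cluster led by Acod1 and Ccl3 held 51.6% of KO and 12.0% of WT neutrophils, and the largest S100a9 cluster 28.9% and 62.4%. These clusters had close shares, 3.91% in KO and 3.38% in WT for the Acod1 cluster and 4.02% and 3.47% for the S100a9 cluster.

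Depth moved with the share in epithelial cells and T or NK cells, so classes were also read in tertiles of UMIs per cell. Epithelial cells had 11.9% in KO and 11.1% in WT in the lowest tertile, 14.7% and 13.8% in the middle one and 16.0% and 15.3% in the highest. T or NK cells had 15.1% in KO and 12.6% in WT in the lowest tertile, 16.2% and 14.3% in the middle and 17.5% and 15.3% in the highest. In both classes the KO library was higher in all 3 tertiles. Monocytes or macrophages were lower in KO in the lowest tertile (10.4% in KO and 11.5% in WT) and in the middle one (11.1% and 11.9%), and higher in the highest (12.2% and 11.2%). Mitochondrial UMIs, a sign of RNA quality, were 5.23% in KO and 4.66% in WT epithelial cells. Leaving them out of the denominator gave a log2 ratio of 0.078, and a 10% limit on them per cell gave 0.079.

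Among the named epithelial states the pooled share was highest in cycling and absorptive-like cells. Absorptive-like cells, named from colonocyte markers, had 17.2% in KO and 15.1% in WT (1039 and 664 cells). Their make-up differed: the Muc3 subcluster, of high share, held 477 KO and 125 WT cells, and the Saa1 subcluster, of low share, 207 and 204 cells. Within the 3 absorptive-like subclusters the log2 ratios were 0.076, 0.080 and 0.11, against 0.20 for the state. Goblet-like cells, which make mucus, had 15.4% and 12.8% (408 and 242 cells). Stem- or progenitor-like cells had 13.9% in KO and 13.2% in WT (1979 and 1508 cells). Cycling cells had 16.7% in KO and 17.2% in WT (182 and 169 cells). Subclusters left unnamed had 13.8% and 15.7% together, and they were different subclusters in the main: 47 of 634 KO cells, but 1040 of 1800 WT cells, belonged to the subcluster led by Mptx2 and Cadps.

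Within a state the subclusters spread further than the libraries did. The absorptive-like subcluster led by Muc3, Sycn and Adh1 reached 19.2% in KO and 18.1% in WT, and the one led by Myl7 and Krt36 18.4% and 17.4%. The one led by Saa1, an acute-phase gene, and Clca4b had 10.1% in KO and 9.38% in WT, below the stem- or progenitor-like cells, although it alone had 4 absorptive markers among its 10 leading genes. Among stem- or progenitor-like cells the subcluster led by Fut9 and Fstl4 had 16.6% in KO and 15.4% in WT. The subcluster led by Pnliprp2 and Ptn had 11.8% and 11.6%, and the one led by Clstn2, Ly6g6c and Cxcl13 13.5% and 10.9%. An unnamed subcluster led by Hbb-bs and Birc5, with a haemoglobin and a cell division gene, was highest of all at 22.1% and 21.6% (96 and 172 cells). Its cells also had few UMIs, a median of 2116 in KO and 2530 in WT. Its 10 leading genes included Iglc1 and S100a9, used here as markers of plasma cells and neutrophils, so its identity is uncertain. Unnamed subclusters of few UMIs and many mitochondrial UMIs were low, at 8.38% and 7.33% for the one led by Gm26917 and at 5.57% and 5.23% for the one led by Myo15b. A group of 6 KO cells led by Ppbp and Psca, with no WT cell, had 6.32%.

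**Figure D2:**
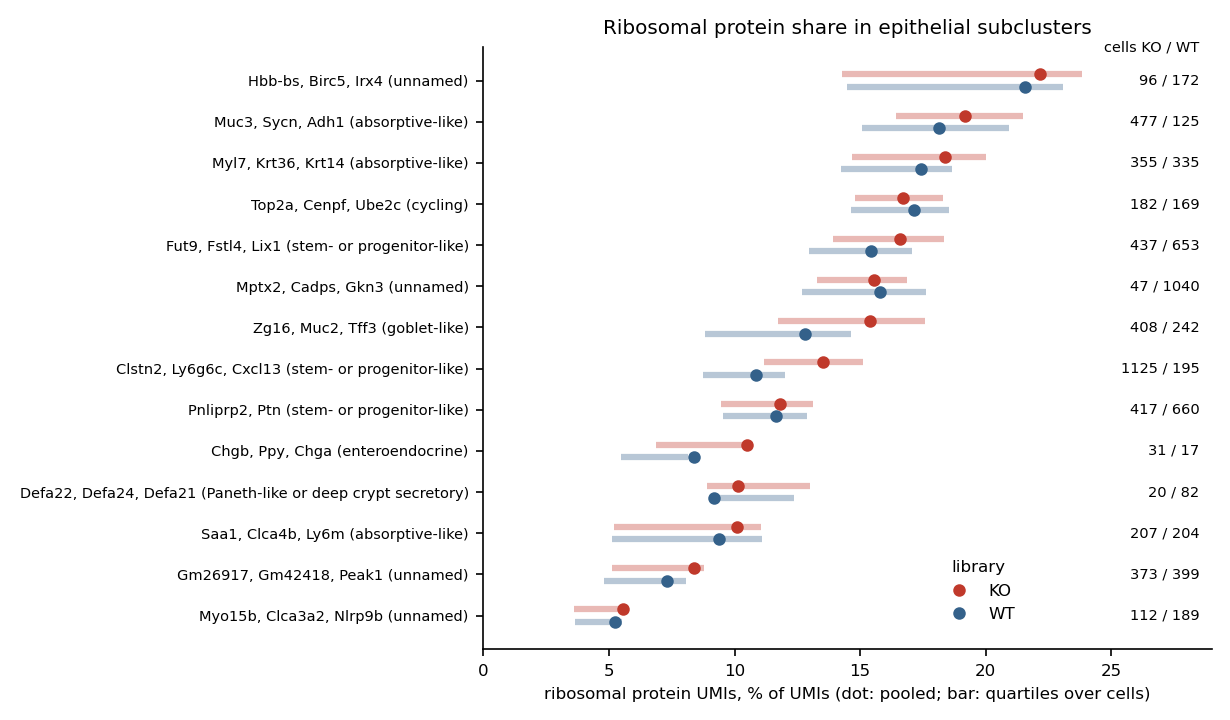
Share of UMIs from ribosomal protein genes (x axis, percent) in 14 epithelial subclusters named by their leading genes, KO drawn above WT in each row; dots are pooled shares, bars the quartiles over cells, and the column at the right counts cells. The subclusters run from 5.57% in KO and 5.23% in WT to 22.1% and 21.6%, and the WT dot lies to the right of the KO dot in the cycling and the Mptx2 rows.

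In 10 of the 11 epithelial subclusters with at least 50 cells from each library the KO share was the higher. The largest log2 ratios were 0.32 (0.31 to 0.32) in the Clstn2 subcluster and 0.27 (0.26 to 0.27) in goblet-like cells. The Clstn2 subcluster held 1125 KO and 195 WT cells. The exception was the cycling subcluster at −0.039 (−0.043 to −0.035). The Mptx2 subcluster, with 47 KO and 1040 WT cells and so outside this count, stood at −0.021. The count changed with the clustering. It was 8 of 11 at Leiden resolution 2, 9 of 12 at Leiden resolution 0.5 and 10 of 13 with members among the variable genes. Subclustering at resolution 0.3 gave 6 of 8, and at resolution 1 it gave 11 of 12. The lowest log2 ratio of a subcluster in these was −0.14, at Leiden resolution 2. Without the subclusters that were mostly of 1 library the epithelial log2 ratio was 0.16, against 0.070 with them. Paneth-like or deep crypt secretory cells, with 20 KO and 82 WT cells, had 10.1% and 9.16%. Their depth differed widely, with a median of 31683.5 UMIs per cell in KO and 1281.5 in WT. The median cell gave the reverse order, at 10.6% in KO and 11.1% in WT. Enteroendocrine cells, with 31 KO and 17 WT cells, had 10.5% and 8.38%.

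Single members moved little between the libraries. A member was called higher or lower in KO when the larger CPM exceeded the smaller by over 25%, with a counting interval that excludes no difference, among genes with 20 or more UMIs in the class. In epithelial cells 0 of 81 members were called higher, where 8.83% of all 18542 genes tested were, and 0 were called lower, where 16.1% of all genes were. Their median log2 ratio was 0.065, against −0.057 for all genes tested. Of the 81 members 63 (77.8%) were above 0, 62 of them with the whole interval, and 14 had their interval below 0. Of all 18542 genes 41.4% were above 0, 4067 genes had their whole interval above 0 and 6440 below. The 5th to 95th percentile ran from −0.071 to 0.18 for the members and from −0.99 to 0.75 for all genes, which are mostly read with fewer UMIs.

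In T or NK cells 4 of 81 members were called higher, against 8.02% of all 11413 genes tested, and 0 lower, against 9.24%. Among them were Rps6, the target of the S6 kinases, Rpsa, also known as the laminin receptor, and Rpl8. Rps6 had 795 CPM in KO and 608 CPM in WT, a log2 ratio of 0.39 (0.30 to 0.47). The 3′ end of Rps6 (the last 300 transcript bases) shares 83.3% of its 50-base stretches with other genes, so its count is less certain. Rpsa had 4270 and 3374 CPM (0.34) and Rpl8 2765 and 2211 CPM (0.32). Rpl8 was no longer called with median-of-ratios scaling. All told, 79 of the 81 members were above 0 in T or NK cells, against 50.5% of all genes tested. Their median was 0.20, 0.23 over the small and 0.17 over the large subunit, against 0.0040 over all genes.

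In B cells 0 of 80 members were called higher, against 3.48% of all 7922 genes, and 1 lower, against 4.33%. That member was Rpl31, a protein near the exit of the nascent chain tunnel, with 410 CPM in KO and 516 CPM in WT (log2 −0.33, −0.58 to −0.082). In monocytes or macrophages 0 of 81 were called higher, against 8.04% of all 12893 genes, and 0 lower, against 7.34%. In neutrophils 2 of 81 were called higher, against 20% of all 11682 genes, and 0 lower, against 6.33%. These were Rpl12, from the base of the stalk, with 305 CPM in KO and 242 CPM in WT (0.33, 0.24 to 0.43), and Rpl3l. Rpl12 lost its call with median-of-ratios scaling and with free RNA subtracted. With free RNA subtracted, 17 of 81 neutrophil members were called lower, 31 were above 0 and the median was −0.090. The share of all genes called after subtraction was not computed, so these 17 have no background to be read against. With library totals as scaling and no subtraction, the share of members called was at or below that of all genes in each of the 5 classes. Of 80 members tested in all 5 classes, 38 were above 0 in every class with library totals as scaling. The neutrophil part of that count moves with the scaling described above. Class by class, 41.4% of all genes tested were above 0 in epithelial cells and 66.0% in neutrophils, with the other classes between. The count above 0 in every class is not given for all genes.

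**Figure D3:**
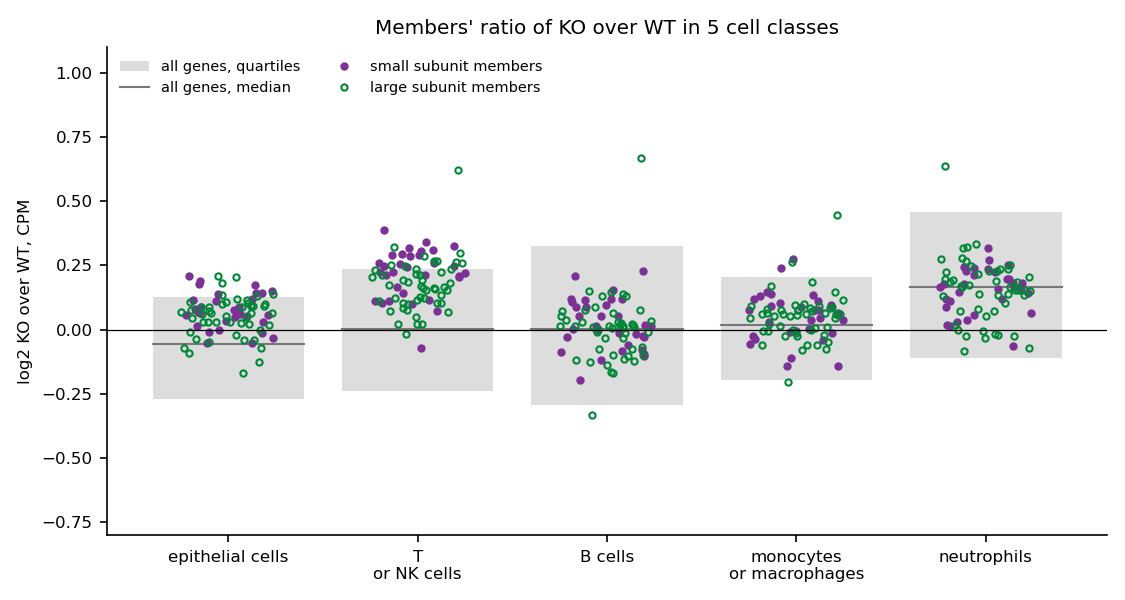
Log2 ratio of KO over WT CPM (y axis) for each ribosomal protein gene in 5 cell classes, filled dots for small and open dots for large subunit members; grey boxes are the quartiles and lines the median of all genes tested. T or NK members centre on 0.20 and epithelial members on 0.065, while the members of B cells centre on 0.012.

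The stalk of the large subunit, built from Rplp0, Rplp1 and Rplp2, recruits elongation factors. In epithelial cells Rplp0 had 4055 CPM in KO and 3807 CPM in WT (log2 0.091) and Rplp1 3217 and 3055 CPM (0.075). Rplp2 had 1229 CPM in KO and 1291 CPM in WT, a log2 ratio of −0.071 (−0.083 to −0.060), with its sign opposite to the partners. The same held in monocytes or macrophages for Rplp1 (0.058) and Rplp2 (−0.047), where Rplp0 stood at −0.026 (−0.053 to 0.001). In T or NK cells all 3 were above 0, at 0.19 for Rplp0 and 0.12 each for Rplp1 and Rplp2. Rplp0 made up 2.66% of ribosomal UMIs in KO and 2.62% in WT epithelial cells, but 1.59% and 1.62% in B cells.

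To set aside the movement of the whole group, each member's UMIs were divided by all member UMIs of the same class and library. Values on this scale are called within-pool log2 ratios of KO over WT. In epithelial cells the members furthest above the pool included Rps6 (0.14), Rpl12 (0.14), Rps19 (0.12), Rpl21 (0.11) and Rps7 (0.11). Rps19 is the gene most often mutated in human Diamond-Blackfan anaemia. The 6 furthest below were Rpl7 (−0.24), Rpl7l1 (−0.20), Rpl10 (−0.16), Rpl35 (−0.14), Rplp2 (−0.14) and Rps15a (−0.12). Rpl7 had 2395 CPM in KO and 2691 CPM in WT epithelial cells, and its 3′ end shares 74.1% of its 50-base stretches with 11 other genes, so part of its reads may be split. Rpl10, which joins the large subunit in a late step, had 1230 and 1309 CPM, and its 3′ end shares 100% of its stretches. Rpl35, near the exit of the tunnel, had 469 and 493 CPM, with 96.0% shared. Rpl12 had 1787 and 1550 CPM, and no stretch of its 3′ end is shared.

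Much of this pattern recurred from class to class. Of 80 members with 20 or more UMIs in all 5 compared classes, 17 lay above the pool in every class and 14 below it in every class. Neutrophil values are without subtraction of free RNA, which made up much of the neutrophil pool by the estimate above. Rpl12 stood at 0.13 in B cells, 0.062 in T or NK cells, 0.14 in epithelial cells, 0.22 in monocytes or macrophages and 0.19 in neutrophils. Rps6 stood at 0.21, 0.19, 0.14, 0.20 and 0.084 in the same order. Rpl10 stood at −0.13, −0.17, −0.16, −0.25 and −0.17, and Rpl35 at −0.18, −0.21, −0.14, −0.12 and −0.22. The other members above the pool everywhere include Rps3, Rps7, Rpsa, Rpl13a and Rpl21, and those below include Rps9, Rps15a, Rps29, Rpl31 and Rplp2.

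The empty droplets of the same libraries gave the same signs. Of the 17 members above the pool in every class, 14 were above it in empty droplets as well, and of the 14 below, 13 were below. Rpl12 had 0.14 in empty droplets, Rps6 0.15, Rpl10 −0.24 and Rpl35 −0.22, each within the range of its values over the 5 classes. The exceptions were Rpl17 (−0.0052), Rps18 (−0.013) and Rpl4 (−0.016) among those above and Rpl37a (0.0061) among those below. Each class shares its library with the others and with the droplets, so these points are not independent, and the part of the libraries in the pattern was not tested.

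**Figure D4:**
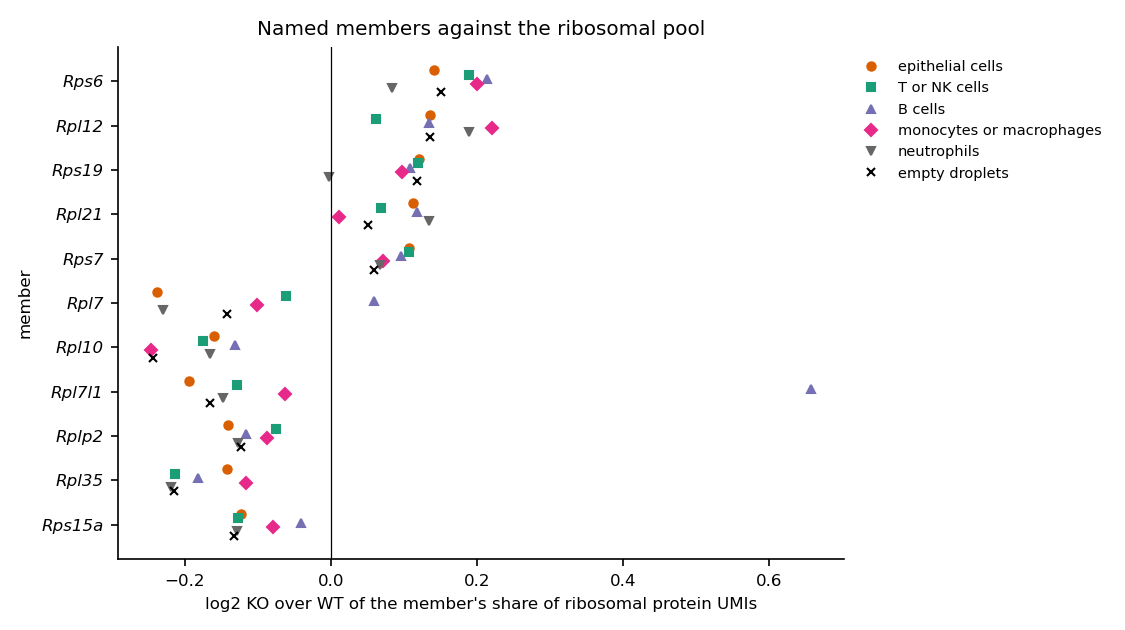
Within-pool log2 ratio of KO over WT (x axis) for members far above and far below the pool in epithelial cells, with a symbol for each of 5 classes and a cross for empty droplets. Rps6, Rpl12 and Rps7 lie right of 0 in every class and in empty droplets, and Rpl10, Rplp2, Rpl35 and Rps15a left of 0; Rpl7l1 stands apart in B cells, where WT has 18 UMIs.

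Outside the epithelium the rule named a few more members. By the interval bound nearest 0, Rps2 (0.20) and Rps27a (0.14) were furthest above the pool in B cells, and Rpl31 (−0.34) and Rps29 (−0.21) furthest below. T or NK cells had Rps6 (0.19) and Rpsa (0.14) above and Rpl10a (−0.18) and Rpl39 (−0.18) below. In monocytes or macrophages Rps27l (0.23) and Rpl12 (0.22) were above, and Rpl10 (−0.25) and Rps29 (−0.18) below. In neutrophils Rpl12 (0.19) and Rpl22 (0.18) were above, and Rpl7 (−0.23) and Rps24 (−0.21) below.

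Members kept close company across cell classes. Over 17 points, each a class in a library with 50 or more cells, a member's log2 level correlated with the log2 share of the other members at a median Pearson r of 0.970, and 75 of 82 members were above 0.9. The 3 members under 0.5 were all variant copies of another gene: Rps27l (0.42), Rpl39l (0.28) and Rpl3l (−0.79). Rpl39l and Rpl3l averaged 1.19 and 1.99 CPM over the points, with 0 at the lowest, so their values rest on few counts. The more abundant copies Rpl22l1 and Rpl7l1 had 0.91 and 0.89. The points share libraries and depth, and the values are a description.

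Some members were tied to particular cell types all the same. Over the 7 classes of at least 50 cells per library, 79 members could be ranked, and the median range of a member's share of ribosomal UMIs was 0.53 on the log2 scale. In 5 members the range was over 2-fold. The widest was that of Rps27l, a copy of Rps27 known as a p53 target, at 6.03-fold. It made up 0.362% of ribosomal UMIs in KO and 0.364% in WT epithelial cells, but 0.0619% and 0.0587% in B cells. The log2 difference between these classes was 2.59 (2.34 to 2.84), but had an interval of 1.13 to 1.37 without doublet removal and was 3.72 with free RNA subtracted. Neutrophil values here and in the next paragraph are without subtraction of free RNA. Its subtraction lowered the neutrophil member share from 4.02% to 1.70% in KO and from 3.64% to 1.73% in WT. Much of the neutrophil pool is thus estimated to be free RNA. Rps9, an early-binding small subunit protein, took 4.46% of ribosomal UMIs in KO and 4.75% in WT neutrophils, and between 1.57% and 2.18% in the other 6 classes. Rps9 had 1795 CPM in KO and 1728 CPM in WT neutrophils, against 2529 and 2552 CPM in epithelial cells, so its level was lower there and its share of the small neutrophil pool higher. Rps27 took 1.35% in KO and 1.27% in WT neutrophils and 0.499% and 0.518% in epithelial cells. Rps27a, made as a fusion with ubiquitin, was also highest in neutrophils, at 2.72% in KO and 2.88% in WT, against 1.44% and 1.31% in B cells.

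Rps24 showed the opposite order, with 2.84% in KO and 3.04% in WT B cells and 1.41% and 1.63% in neutrophils. Rpl41, the shortest ribosomal protein, was highest in neutrophils (2.69% and 2.58%) and lowest in B cells (1.42% and 1.41%). The least variable of the ranked members were Rpl18, Rpl27a and Rplp2, with ranges of 0.15 each on the log2 scale.

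**Figure D5:**
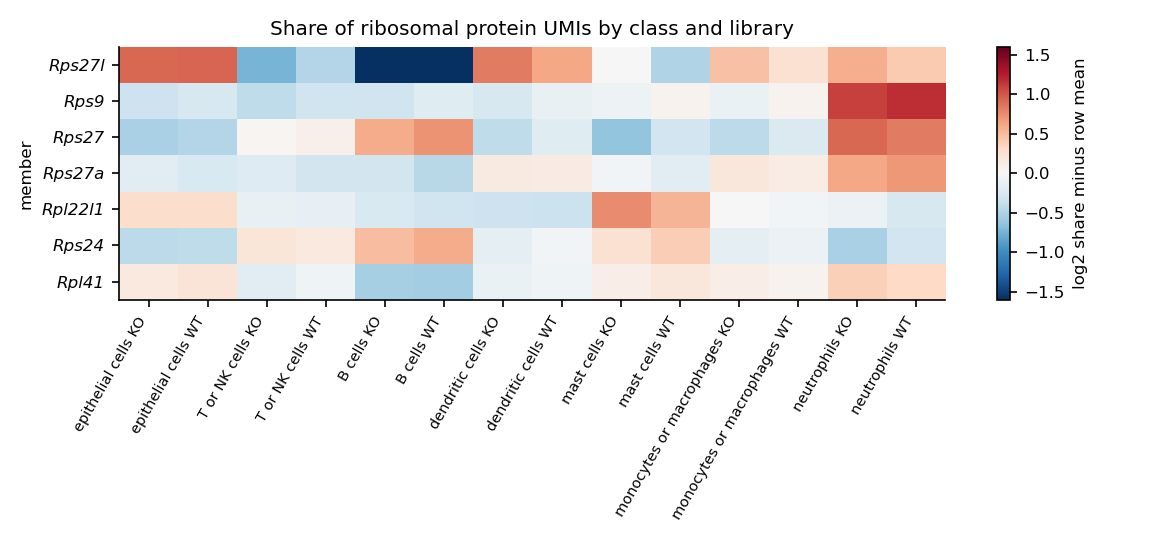
Share of ribosomal protein UMIs of members with a wide range over 7 classes, as the log2 share minus the row mean (colour scale), with KO left of WT in each class. Rps27l is high in epithelial and low in B cells of both libraries, and Rps9 is highest in neutrophils. No free RNA was subtracted.

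Within the epithelium the members varied less, with a median range of 0.42 on the log2 scale over 11 subclusters and 1 member over 2-fold. That was Rpl36, at 1.88% of ribosomal UMIs in KO and 1.89% in WT in the Gm26917 subcluster, against 0.649% and 0.714% in the Clstn2 subcluster. Its 3′ end shares 89.2% of its stretches with other genes. The Gm26917 subcluster had a median of 1454 UMIs per cell in KO and 1569 in WT, and 16.5% and 17.2% mitochondrial UMIs.

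Some members are variant copies of another member and can be set against their parent. Values here are the copy's percentage of the UMIs of the copy and its parent together, counted from 3′ tags. No free RNA was subtracted, which bears on neutrophils in particular. The 3′ end of Rps27 shares 100% of its stretches with 9 other genes and that of Rps27l none, so the percentage of this pair depends on how shared reads were counted. Rps27l made up 42.1% of the pair with Rps27 in KO and 41.3% in WT epithelial cells. It made up 38.7% and 32.2% in dendritic cells, 33.1% and 27.1% in monocytes or macrophages, 29.4% and 19.2% in mast cells, 17.6% and 16.8% in neutrophils, 13.6% and 15.5% in T or NK cells and 5.42% and 4.73% in B cells. In empty droplets it was 44.0% and 40.8%. Plasma cells, with 72 KO and 48 WT cells, had 42.8% and 35.3%, far from the value of B cells.

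Epithelial subclusters had different mixtures of this pair. The cycling subcluster had 49.2% Rps27l in KO and 46.4% in WT, and the Hbb-bs and Birc5 subcluster 51.2% and 49.1%. The Muc3 absorptive-like subcluster had 34.1% in KO and 30.4% in WT, and goblet-like cells 35.8% and 37.1%. The Clstn2 subcluster had 44.1% and 40.1%, and the Pnliprp2 subcluster 44.0% and 40.5%.

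Rpl22l1, a copy of Rpl22 that is known to be repressed by its parent, ranged less. It made up 45.6% of the pair in KO and 41.3% in WT mast cells, 34.9% and 35.7% in epithelial cells, 32.7% in neutrophils of both libraries, 27.1% and 26.5% in T or NK cells and 25.8% and 26.6% in B cells. Goblet-like cells had 41.3% in KO and 38.5% in WT, and the Saa1 absorptive-like subcluster 28.6% in both. Rpl7l1, a nucleolar relative of Rpl7 that takes part in ribosome assembly, had 2.42% of its pair in KO and 2.35% in WT epithelial cells. In B cells it had 3.94% (127 UMIs) in KO and 2.64% (18 UMIs) in WT.

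Rpl3l and Rpl39l were rare, with most of their UMIs in few classes. Rpl3l had 106 UMIs in KO and 66 in WT neutrophils, 14.7 and 9.45 CPM (log2 0.64), against 0.244 and 0.253 CPM in epithelial cells. It had 2.22 CPM in KO and 1.63 CPM in WT monocytes or macrophages, 0 UMIs in KO and 7 UMIs (3.47 CPM) in WT dendritic cells, 0 UMIs and 1 UMI in T or NK cells, and 0 UMIs in B cells of both libraries. A count of 0 allows up to 1.99 CPM in KO and 8.85 CPM in WT B cells. Empty droplets held 9 UMIs in KO (0.979 CPM) and 2 in WT (0.223 CPM). Rpl39l, known from the testis in mouse, had 26 UMIs in KO and 18 in WT T or NK cells (8.23 and 5.35 CPM), against 6 and 4 UMIs in the far deeper epithelial class. Monocytes or macrophages had 0 UMIs of it in KO and 14 in WT, dendritic cells 0 and 4, mast cells 0 and 2, and neutrophils 0 in both libraries. The parents had within-pool log2 ratios in epithelial cells of −0.0066 for Rpl3 and −0.043 for Rpl39.

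Genes outside the group with a like profile were ranked over the same 17 points among 3905 genes of 10 CPM or more at each point. The closest was U2af1, a splicing factor subunit, at r = 0.985, followed by Gm2000, the initiation factor subunit Eif3f, Thrap3, Eif3e, Nsa2, Nol7, Naca, the elongation factor Eef1a1 and, at 0.965, Snrpg. The median over all 3905 genes was 0.43. Other known TOP mRNAs had a median of 0.91 (17 genes), ribosome assembly factors 0.87 (19), RNA polymerase I machinery 0.84 (5) and cytosolic ribosomal proteins with other symbols 0.83 (5). Translation initiation factors had 0.76 (24), mitochondrial ribosomal proteins 0.71 (49), regulators around mTOR, Larp1 and Myc 0.62 (7) and p53 response genes 0.20 (8).

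Other translation genes had medians below that of the members (0.065) and above that of all genes tested (−0.057) in epithelial cells. Of all genes tested there, 8.83% were called higher and 16.1% lower. In epithelial cells, 0 of 78 mitochondrial ribosomal protein genes were called higher and 1 lower, with a median log2 ratio of −0.036. Of 17 other TOP mRNAs 0 were called, with a median of 0.033; Eef1a1 had 5392 CPM in KO and 5272 CPM in WT (0.033), and Eef2 1301 and 1219 CPM (0.094). Of 29 initiation factors 0 were called, with a median of 0.00091. Eif1, which selects the start codon, had 1265 CPM in KO and 1413 CPM in WT (−0.16), and Eif4a1 609 and 655 CPM (−0.11). Of 45 assembly factors 0 were called, with a median of 0.0015; the nucleolar Ncl was at 0.055 and Npm1 at −0.034. Fau had 2522 CPM in KO and 2339 CPM in WT (0.11) and Rack1 1493 and 1396 CPM (0.096). Rpl36al stood at −0.059.

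The remaining lists were small. In epithelial cells, 8.83% of all genes tested were called higher and 16.1% lower, with a median of −0.057. Of 15 RNA polymerase I genes 0 were called in epithelial cells, with a median of 0.047. Of 15 regulators around mTOR, Larp1 and Myc 1 was called lower, with a median of −0.021; Larp1 itself stood at 0.085 and Rheb, the activator of mTOR, at −0.16. Of 13 p53 response genes 0 were called, with a median of −0.0037, Cdkn1a at 0.16 and Bax at −0.13. Among 45 assembly factors in T or NK cells, 15 were called higher, against 8.02% of all genes, and 1 lower, against 9.24%, with a median of 0.27, against 0.0040 over all genes. Ncl had 494 CPM in KO and 331 CPM in WT T or NK cells (0.58) and Npm1 751 and 593 CPM (0.34). Mitochondrial ribosomal protein genes in T or NK cells had a median of −0.025, with 3 called higher and 3 lower of 77. Of 17 other TOP mRNAs 2 were called higher there and 0 lower, with a median of 0.086. In neutrophils 6 of 45 assembly factors were called higher, against 20% of all genes, and their median of 0.20 stood beside 0.17 over all genes. Monocytes or macrophages had 5 of 45 higher, against 8.04%, and 2 lower, against 7.34%. B cells had 3 of 45 higher, against 3.48%, and 2 lower, against 4.33%.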

How the data were processed

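Both samples were deposited as raw UMI counts per gene for every barcode; per the file headers the authors' matrices come from Cell Ranger 4. The submitters' processing notes list Cell Ranger, Seurat and mm10, and the gene annotation behind the counts is not stated. A 3′ kit counts each captured RNA once whatever its length.

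From the deposited counts, cells were called per library against free RNA (barcodes under 100 UMIs; 500 or more UMIs tested; false discovery rate 0.001; 10000 draws), filtered (200 or more genes, at most 25% mitochondrial UMIs) and cleared of the highest Scrublet scores (0.8% per 1000 cells). Counts per 10000 were log transformed; 2000 variable genes without members, 30 components, 15 neighbours and Leiden resolution 1 (0.6 for epithelial cells) gave clusters, named from markers with at least 3 needed. The 34 shared barcodes were kept. After the data were seen, leading genes were ranked by fold over the 25th percentile of cluster means, cycling needed 3 markers among the 10 leading genes, and a coding length of 400 bases was chosen as a split.

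Shares carry exact Clopper-Pearson intervals and log2 ratios exact conditional binomial intervals, all of 95%, which cover counting error only. Gene by gene comparisons were made in classes of at least 100 cells per library. No test was run, since there was 1 library per genotype. Calling rules were tested on simulated data, drawn with counting error only from a profile shared by both libraries. Such data cannot show how often a difference between libraries is called. Members, gene lists, markers and rules were chosen with earlier results of these data known. Always named were stalk genes, Rpsa and variant copies with their parents. The rule then took the 6 members (2 outside the epithelium) furthest each way within the pool by the interval bound nearest 0, the 8 of widest range, the 10 most alike genes and the 3 most abundant of each other list. Some genes that the rule names are not reported here. Gene positions are from GENCODE M21 and promoters from RefSeq. Alternatives covered cell calling, clustering, denominators, weighting, scaling, free RNA and depth. Python 3.11.15, scanpy 1.11.5, scipy 1.17.1, numpy 2.4.6, pandas 2.3.3, leidenalg 0.10.2 and matplotlib 3.10.9 were used.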

Additional observations from a re-analysis of the deposited data

Results flagged for a closer look

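In 7 groups the ribosomal share was lower in KO where like groups were higher; these differences were not tested, and intervals cover counting error only. Mast cells stood at a log2 ratio of −0.077 (16.6% in KO and 17.5% in WT, 61 and 149 cells), while 5 other classes were higher in KO. The cycling epithelial subcluster led by Top2a stood at −0.039 (16.7% and 17.2%), while 10 other subclusters were higher. The epithelial cluster led by Mdga2 and Ptn stood at −0.063 (12.1% in KO and 12.6% in WT, 729 and 1098 cells).

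In T or NK cells the cluster led by Il17a, Trdc and Cd3g stood at −0.22 (10.9% and 12.6%, 92 and 143 cells), the largest of these differences. In neutrophils the cluster led by Ccl3, Il1f9 and Hmox1, the last a heme-degrading stress enzyme, stood at −0.18 (4.02% in KO and 4.54% in WT, 187 and 397 cells). In monocytes or macrophages the cluster led by Cxcl3, Ccl4 and Inhba stood at −0.037 (11.8% and 12.1%, 517 and 828 cells). The macrophage cluster led by the complement gene C1qc, Apoe and C1qa stood at −0.097 (13.5% and 14.4%, 53 and 105 cells).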

How the results depend on the processing

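No paired analysis was possible because each genotype has 1 library. The main log2 ratios of KO over WT were 0.012 in B cells, 0.20 in T or NK cells, 0.070 in epithelial cells, 0.041 in monocytes or macrophages and 0.15 in neutrophils; the cause of each change given here was not tested. The epithelial value stayed above 0 in all 18 alternatives. It was 0.071 with every barcode of 1000 UMIs, at Leiden resolution 2 and without subclusters of few UMIs, 0.079 with a 10% mitochondrial limit, 0.065 without doublet removal, 0.078 with mitochondrial genes out of the denominator, 0.080 as a mean over cells, 0.077 with free RNA subtracted and 0.075 thinned to 1000 UMIs. It was 0.11 with subclusters weighted equally, 0.13 with median-of-ratios scaling and with clusters weighted equally, 0.16 without subclusters mostly of 1 library and 0.025 with leading genes by fold over all other cells, where 1 large absorptive cluster lost its name. The T or NK value was above 0 in 14 of 15 alternatives: 0.14 without doublet removal, 0.19 as a mean over cells, 0.22 with free RNA subtracted, 0.19 thinned and −0.00093 with clusters weighted equally. The B cell value was above 0 in 13 of 14: 0.071 with every barcode of 1000 UMIs, 0.088 with a 10% limit, 0.16 without doublet removal, 0.032 with free RNA subtracted and −0.0024 with members among the variable genes. Monocytes or macrophages were above 0 in 12 of 15: 0.11 without doublet removal, 0.030 with free RNA subtracted, 0.022 with median-of-ratios scaling, −0.033 as a mean over cells, −0.049 thinned and −0.0042 with clusters weighted equally. Neutrophils were above 0 in 13 of 15: 0.13 without doublet removal, as a mean over cells and thinned, 0.16 with Fau, Rpl36al and the like added, 0.11 with clusters weighted equally, −0.027 with free RNA subtracted and −0.021 with median-of-ratios scaling. Members called higher in KO numbered 1 in B cells and 11 in T or NK cells with free RNA subtracted, against 0 and 4, and 1 in neutrophils and 3 in T or NK cells with median-of-ratios scaling, against 2 and 4. Members called lower numbered 17 in neutrophils with free RNA subtracted, against 0, and 1 in monocytes or macrophages with a minimum of 1 UMI. The share of all genes called was not computed for these alternatives. The WT order of the 5 compared classes kept 3 classes in place with a 10% mitochondrial limit and with mitochondrial genes out of the denominator. Equal weights, median-of-ratios scaling of the share, both settings without subclusters and the other ranking of leading genes were chosen after seeing the data. Thinning left out 141 KO and 221 WT epithelial cells and 242 and 152 neutrophils.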

Other observations

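Members low within the KO pool in every class tended to have short coding sequences. Of the 14 members below the pool in all 5 compared classes, 9 had a coding length under 400 bases, and their median was 378 bases. Of the 17 members above it in all 5 classes, 0 were under 400 bases, and their median was 609 bases. Over all 80 members 26 were that short, with a median of 462 bases. Across the 80 genes, which are not independent replicates, Spearman's rho between coding length and the within-pool log2 ratio was 0.45 in T or NK cells, 0.33 in B cells, 0.26 in epithelial cells and in monocytes or macrophages, 0.0019 in neutrophils and 0.12 in empty droplets. In T or NK cells the median within-pool ratio was −0.081 over the shorter and 0.023 over the longer members. Other genes showed the same order there, with median log2 ratios of −0.099 over the shorter and 0.0076 over the longer genes, and likewise in B cells (−0.063 and 0.0090). For other genes the order was also the same in neutrophils (0.082 and 0.16) and, by little, in epithelial cells (−0.063 and −0.049). In monocytes or macrophages it was the reverse (0.038 and 0.019). Coding lengths came from GENCODE M21, and why the lengths went with the ratios was not tested.

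Many members have near-copies elsewhere in the genome. Of the 82 members, 37 share 50% or more of the 50-base stretches in their last 300 transcript bases with other genes, and 27 share none. In epithelial cells the median log2 ratio of KO over WT was 0.094 over 26 members with no shared end and 0.069 over 37 with such sharing. Pseudogene entries of members had 5 rows in the files, which summed to 100.1 CPM in KO and 95.1 CPM in WT cells, led by Rpl9-ps6.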
